A study of Mus musculus with 34 samples.

Results

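GABA-A receptors are the chloride channels through which most fast inhibition in the cortex is carried, and the transcripts of 7 of their subunit genes, Gabra2, Gabra3, Gabra4, Gabra5, Gabrb1, Gabrb2 and Gabrd, were followed here in mice that carry a Huntington's disease transgene, a targeted Hdac4 allele, both or neither. The genes were chosen by name, with earlier results of these data known. Every probe set that the platform annotation assigns to them was kept, which gave 21 of the 45037 probe sets on the array. Gabra2 and Gabrb2 had 5 probe sets each, Gabrb1 had 4, Gabra3, Gabra4 and Gabrd had 2 each and Gabra5 had 1. Values are log2 expression levels, so a difference of 1 is a doubling, and probe sets of a gene are numbered by their mean over all arrays with probe set 1 the brightest. Levels of different probe sets are not compared with each other, since each has its own probes.

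A GABA-A receptor is a ring of subunits drawn from several families. The alpha subunits set much of its affinity for GABA and, with a gamma subunit, its response to benzodiazepines, the beta subunits form the GABA binding site with the alpha subunits and carry the receptor to the membrane, and the delta subunit takes the place of the gamma subunit in receptors that lie outside synapses and carry tonic inhibition. In the forebrain the delta subunit is best known as a partner of the alpha 4 subunit, while alpha 2 and alpha 3 are mainly synaptic and alpha 5 is largely extrasynaptic.

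Cortex was taken at 15 weeks of age from mice of 4 genotypes of a cross on a CBA X C57Bl/6 background. Dble::R6/2 mice (n = 9) carried both the R6/2 transgene, a mutant exon 1 fragment of human HTT, and 1 targeted Hdac4 allele. R6/2 mice (n = 9) carried the transgene with both Hdac4 alleles intact, Hdac4HET mice (n = 8) carried the targeted allele without the transgene, and WT mice (n = 8) carried neither. R6/2 is a fragment model of a single transgenic line, and the Hdac4 allele is a germline knock-out, so both mutations were present in every cell type. The targeted allele was made in a 129S strain, so chromosome linked to it may differ from the other alleles in Hdac4HET and Dble::R6/2. The labels number the arrays of a genotype and do not say that each is a separate mouse, so p-values measure the spread between these samples, which may in part be technical. Cortex is a mixed tissue, so fewer cells of a type and less RNA per cell cannot be told apart in any of the values below.

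The median log2 value of an array was between 5.44 and 5.52, and the lowest correlation within a genotype was 0.973. The 3 probe sets of the targeted gene, Hdac4, changed by -0.48, -0.51 and -0.36 in Hdac4HET against WT (limma adjusted p = 0.0036, 0.00743 and 0.0299). In Dble::R6/2 against R6/2 they changed by -0.33, -0.61 and -0.08, and only the second passed (limma adjusted p = 0.691, 3.3e-04 and 0.945), while the third also fell in R6/2 against WT, by 0.39 on the log2 scale (limma adjusted p = 0.00449). The brightest spanned 7.32 to 7.80 in Dble::R6/2, 7.54 to 8.14 in R6/2, 7.47 to 7.74 in Hdac4HET and 7.81 to 8.20 in WT. In 4 arrays, WT replicates 2, 6 and 7 and Hdac4HET replicate 1, prolactin (Prl), a pituitary hormone, lay above a log2 value of 8. R6/2 replicate 2 carried epidermal transcripts (mean of the marker list 6.38, at most 5.48 in Dble::R6/2, 5.38 in Hdac4HET and 5.34 in WT). In 15 of the 34 arrays the level of Xist did not match the labelled sex, unevenly by genotype. These were WT replicates 3, 4, 5, 6 and 8, Hdac4HET replicates 4, 5, 6, 7 and 8, R6/2 replicate 2 and Dble::R6/2 replicates 2, 3, 6 and 7. Results that move with the arrays high in Prl or with R6/2 replicate 2 are given with and without those arrays. The part that any of these arrays play was not tested.

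In the RefSeq annotation Gabra2, Gabra4 and Gabrb1 share a cluster of subunit genes on chromosome 5, Gabra3, Gabra5 and Gabrb2 lie in clusters on chromosomes X, 7 and 11, and Gabrd is alone on chromosome 4. Gabra4 and Gabrb1 lie on opposite strands and overlap by 388 bases at their starts, so that each promoter window lies inside the start of the other gene. Their brightest probe sets differed from WT in opposite directions in R6/2 cortex. The Gabrb1 rise did not pass on its other probe sets or in every setting, as described below, and no link to the overlap was tested. Promoter sequences are printed for this pair, and for Gabra2 and Gabrb2 as the other members with a RefSeq window whose brightest probe set fell. They run 5′ to 3′ on the strand of the gene, from 250 bases before to 50 bases after the annotated start (RefSeq, GRCm38.p6). Capitals mark matches, on either strand, to 5 searched motifs, the cAMP response element TGACGTCA, the EGR site GCGNGGGCG, the MEF2 site (CTA and TAG, 4 bases apart), the GC box GGGCGG and the TATA box TATAAA.
Gabra4 promoter, chr5:71658259-71658558, minus strand: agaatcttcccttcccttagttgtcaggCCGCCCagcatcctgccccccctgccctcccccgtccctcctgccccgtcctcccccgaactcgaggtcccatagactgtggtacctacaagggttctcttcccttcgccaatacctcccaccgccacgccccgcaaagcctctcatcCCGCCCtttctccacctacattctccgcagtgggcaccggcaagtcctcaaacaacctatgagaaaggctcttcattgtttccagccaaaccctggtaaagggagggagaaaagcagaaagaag
Gabrb1 promoter, chr5:71657671-71657970, plus strand: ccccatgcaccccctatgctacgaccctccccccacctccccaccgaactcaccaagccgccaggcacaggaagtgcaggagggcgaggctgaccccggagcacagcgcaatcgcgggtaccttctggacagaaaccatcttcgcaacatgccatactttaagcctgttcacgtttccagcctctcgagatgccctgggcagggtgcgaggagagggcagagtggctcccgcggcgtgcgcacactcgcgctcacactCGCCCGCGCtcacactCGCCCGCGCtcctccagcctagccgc
Gabra2 promoter, chr5:71095800-71096099, minus strand: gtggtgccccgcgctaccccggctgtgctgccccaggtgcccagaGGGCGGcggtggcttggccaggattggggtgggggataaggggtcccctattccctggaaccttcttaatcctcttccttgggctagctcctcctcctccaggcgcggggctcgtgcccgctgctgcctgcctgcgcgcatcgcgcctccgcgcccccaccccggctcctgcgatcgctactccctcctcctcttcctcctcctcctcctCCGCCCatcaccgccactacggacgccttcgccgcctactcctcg
Gabrb2 promoter, chr11:42420190-42420489, plus strand: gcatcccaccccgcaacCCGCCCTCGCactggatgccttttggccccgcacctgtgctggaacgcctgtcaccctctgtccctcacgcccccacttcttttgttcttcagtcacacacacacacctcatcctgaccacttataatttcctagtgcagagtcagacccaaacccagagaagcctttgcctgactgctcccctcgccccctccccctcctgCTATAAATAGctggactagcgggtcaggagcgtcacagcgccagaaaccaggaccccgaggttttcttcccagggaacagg

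In the whole RefSeq promoter table of 32851 windows, a GC box occurred in 35.7%, a TATA box in 13.6%, an EGR site in 5.55%, a MEF2 site in 3.69% and a cAMP response element in 1.79%. Gabra4 held 2 GC boxes and no other searched motif, and the first Gabrb1 window held 2 EGR sites, both just after the start. Gabra2 held 2 GC boxes. The first of 3 Gabrb2 windows held 1 GC box that overlaps 1 EGR site, and 1 MEF2 site that overlaps 1 TATA box about 30 bases before the start. In all, 6 of the 7 members had a window, and Gabrd had none in the table. The windows not printed are a second of Gabrb1, 2 more of Gabrb2, 2 of Gabra3 and 1 of Gabra5. A match is a run of letters, not a measured site, and which start each transcript used was not measured.

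The first question was how the subunits stood in cortex with the transgene and 2 intact Hdac4 alleles. On the brightest probe set of each gene, 4 of the 7 genes were lower in R6/2 than in WT, Gabrd by the most, then Gabrb2, Gabra2 and Gabra4, and Gabrb1 alone was higher. Gabra3 and Gabra5 did not pass on theirs. Of all 18193 genes taken by their brightest probe set, 11.8% were lower and 20.2% higher. Over all 21 probe sets, 10 were lower and 1 was higher in R6/2 (limma, Benjamini-Hochberg over all probe sets, adjusted p at or under 0.05), beside 12% lower and 14.9% higher of all 45037 probe sets. Every Gabrb2 probe set was among the 10, so they are not 10 separate genes. Of the 21, 15 were brighter than the median probe set. Among the 22518 probe sets above that median, fitted alone, 4325 were lower and 5808 higher, a larger share than over the whole array. The median log2 change of the 7 brightest probe sets was -0.36, against 0.02 over all 18193 genes. The plot of the brightest probe set by array shows these levels.

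**Figure D1:**
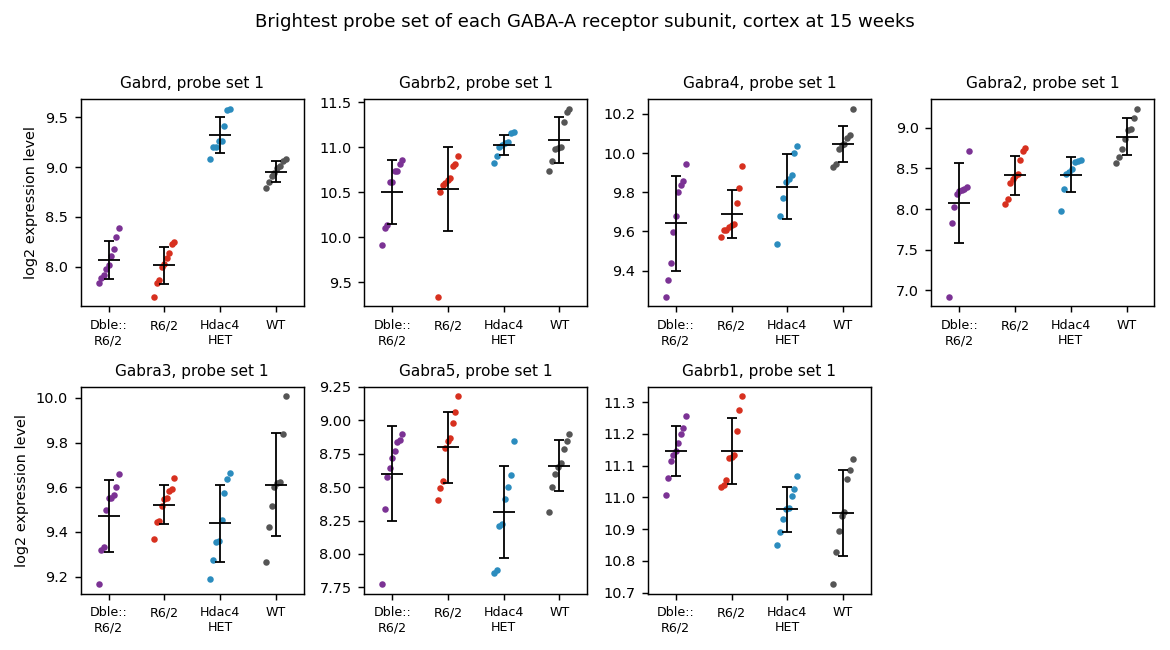
Log2 expression level of the brightest probe set of each subunit gene in every array, by genotype (Dble::R6/2 and R6/2, n = 9 each, Hdac4HET and WT, n = 8 each). Points are single arrays, sorted by value within a genotype, and bars are the mean ± SD. Each panel has its own scale. Gabrd separates both transgenic genotypes (7.70 to 8.39) from Hdac4HET and WT (8.79 to 9.59) without overlap.

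Gabrd encodes the delta subunit of extrasynaptic receptors. Its brightest probe set (1449980_a_at) spanned 7.83 to 8.39 with a median of 8.02 in Dble::R6/2, 7.70 to 8.25 with a median of 8.03 in R6/2, 9.08 to 9.59 with a median of 9.26 in Hdac4HET and 8.79 to 9.08 with a median of 8.97 in WT. No array with the transgene reached any array without it, and all but 1 Hdac4HET array, replicate 3, lay above every WT array. The log2 change of R6/2 against WT was -0.94 ± 0.08 (SE, limma adjusted p = 4.48e-08), so that 52.1% of the WT level was left. Between Dble::R6/2 and Hdac4HET it was -1.25 ± 0.09 (SE, limma adjusted p = 5.06e-09), which left 41.9%. Both calls held under every alternative run for them, with adjusted p from 8.83e-11 to 3.21e-05 for R6/2 against WT and from 9.53e-14 to 1.08e-05 for Dble::R6/2 against Hdac4HET. The order of means ran Hdac4HET, WT, Dble::R6/2, R6/2, and only the last pair of neighbours did not pass a test (log2 change 0.05, limma adjusted p = 0.964). Gabrd probe set 2 was dim, at 3.52 ± 0.16 in R6/2 and 3.70 ± 0.14 in WT (SD, n = 9 and 8), and passed in none of these comparisons.

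Gabra4 encodes the alpha 4 subunit, the usual partner of delta. Its brightest probe set (1433707_at) spanned 9.27 to 9.94 with a median of 9.68 in Dble::R6/2, 9.57 to 9.94 with a median of 9.63 in R6/2, 9.54 to 10.04 with a median of 9.86 in Hdac4HET and 9.93 to 10.23 with a median of 10.04 in WT. The R6/2 and WT arrays overlapped only through R6/2 replicate 9. The change of R6/2 against WT was -0.36 ± 0.06 (SE, limma adjusted p = 1.58e-04), or 77.9% of WT. Dble::R6/2 and Hdac4HET overlapped widely, with a change of -0.19 ± 0.10 (SE) that did not pass (limma adjusted p = 0.198, 95% interval -0.39 to 0.02). It passed there only with the mean of both Gabra4 probe sets, at -0.24 (adjusted p = 0.032, over all alternatives 0.032 to 0.326). By mean the order was WT, Hdac4HET, R6/2, Dble::R6/2, and no neighbours in it differed past the threshold (adjusted p = 0.0759, 0.192 and 0.97). Gabra4 probe set 2 changed by -0.26 ± 0.16 in R6/2 and did not pass.

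Gabra2 encodes the alpha 2 subunit, placed at synapses and on the axon initial segment. Its brightest probe set (1455444_at) spanned 6.92 to 8.72 with a median of 8.225 in Dble::R6/2, 8.06 to 8.75 with a median of 8.40 in R6/2, 7.97 to 8.61 with a median of 8.47 in Hdac4HET and 8.57 to 9.23 with a median of 8.92 in WT. All 3 mutant genotypes sat low against WT, with 1 Dble::R6/2, 3 R6/2 and 3 Hdac4HET arrays inside the WT range. R6/2 against WT changed by -0.47 ± 0.11 (SE, limma adjusted p = 0.00266) and Hdac4HET against WT by -0.47 ± 0.11 (SE, limma adjusted p = 0.0306). Dble::R6/2 lay lowest, at -0.82 ± 0.17 against WT (SE, limma adjusted p = 0.00115), and neither its change of -0.35 ± 0.17 against Hdac4HET (adjusted p = 0.164) nor its change of -0.35 ± 0.17 against R6/2 (adjusted p = 0.876) passed. Dble::R6/2 replicate 2, at 6.92, was far below the other 8 arrays of its genotype. Without it the change against Hdac4HET was -0.21 and against R6/2 -0.20.

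The other Gabra2 probe sets gave a different spread. Probe set 3 spanned 4.91 to 7.40 with a median of 7.02 in R6/2 and 6.99 to 8.37 with a median of 8.19 in WT, and fell by 1.37 on the log2 scale in R6/2 (SE 0.30, limma adjusted p = 0.0016). It was the widest change of any member probe set in that comparison. The WT range, which reaches down to replicate 8, took in 5 R6/2 arrays, and no other WT array lay inside the R6/2 range. Probe set 2 spanned 4.82 to 8.17 in R6/2 and 7.67 to 8.85 in WT, with a change of -0.88 ± 0.36 that did not pass (adjusted p = 0.0796). It did pass without R6/2 replicate 2, the array with epidermal transcripts and the lowest value, at -0.56 (adjusted p = 0.0482), and also with array weights, with the replicate block and with 4 genotypes in a single fit. Probe sets 4 and 5 were dim, with WT means of 3.45 and 2.79, and changed by -0.06 and 0.02.

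Gabra3 encodes the alpha 3 subunit, and its 2 probe sets did not move together. The brightest (1436957_at) spanned 9.17 to 9.66 in Dble::R6/2, 9.37 to 9.64 in R6/2, 9.19 to 9.66 in Hdac4HET and 9.27 to 10.01 in WT, with every genotype inside the WT range but for the lowest Dble::R6/2 and Hdac4HET arrays. Its change in R6/2 was -0.09 ± 0.08 (SE, limma adjusted p = 0.482, 95% interval -0.26 to 0.08). Probe set 2, below the median brightness of the array, fell by 0.68 on the log2 scale in R6/2 (SE 0.17, limma adjusted p = 0.00428), with 4.83 ± 0.31 in R6/2 and 5.51 ± 0.43 in WT (SD, n = 9 and 8). Between Dble::R6/2 and Hdac4HET it changed by -0.15 ± 0.14, which did not pass (adjusted p = 0.536). The means of the brightest probe set ran WT, R6/2, Dble::R6/2, Hdac4HET, and no neighbours differed past the threshold (adjusted p = 0.482, 0.949 and 0.845).

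Gabra5 encodes the alpha 5 subunit of extrasynaptic receptors and had a single probe set (1433602_at). It spanned 7.77 to 8.90 with a median of 8.72 in Dble::R6/2, 8.41 to 9.18 with a median of 8.85 in R6/2, 7.85 to 8.85 with a median of 8.32 in Hdac4HET and 8.31 to 8.90 with a median of 8.67 in WT. All 4 genotypes overlapped. R6/2 against WT changed by 0.14 ± 0.11 (SE, limma adjusted p = 0.391, 95% interval -0.09 to 0.36), and Dble::R6/2 against Hdac4HET by 0.29 ± 0.15 (adjusted p = 0.215). Dble::R6/2 replicate 2 was again the lowest array, and without it, a choice made after seeing the data, the second change was 0.39 and passed (adjusted p = 0.0307). The order of means was R6/2, WT, Dble::R6/2, Hdac4HET, where no neighbours differed past the threshold (adjusted p = 0.391, 0.794 and 0.215) although the ends did, at 0.48 for R6/2 against Hdac4HET (adjusted p = 0.0135).

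Gabrb2 encodes the beta 2 subunit, the most common beta subunit of synaptic receptors in the forebrain. Its brightest probe set (1429685_at) spanned 9.92 to 10.86 with a median of 10.62 in Dble::R6/2, 9.34 to 10.905 with a median of 10.64 in R6/2, 10.83 to 11.16 with a median of 11.03 in Hdac4HET and 10.74 to 11.43 with a median of 11.001 in WT. A single Dble::R6/2 array entered the Hdac4HET range, and 3 R6/2 arrays entered the WT range. R6/2 against WT changed by -0.55 ± 0.17 (SE, limma adjusted p = 0.0205) and Dble::R6/2 against Hdac4HET by -0.52 ± 0.12 (SE, limma adjusted p = 0.00327). R6/2 replicate 2 was the lowest array at 9.34. By mean the order was WT, Hdac4HET, R6/2, Dble::R6/2, and only the step between Hdac4HET and R6/2 passed (-0.49, adjusted p = 0.0279), not the first (adjusted p = 0.781) or the last (adjusted p = 0.99).

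All 5 Gabrb2 probe sets fell in R6/2, and 4 of them fell in Dble::R6/2 against Hdac4HET, the dim probe set 5 being the exception. Probe set 2 stood furthest from WT in both transgenic genotypes among the 5. It spanned 9.49 to 10.42 in Dble::R6/2, 9.65 to 10.45 in R6/2, 10.20 to 10.74 in Hdac4HET and 10.63 to 11.04 in WT, and no R6/2 or Dble::R6/2 array reached WT. Its change was -0.68 ± 0.11 for R6/2 against WT (SE, limma adjusted p = 1.54e-04) and -0.43 ± 0.12 for Dble::R6/2 against Hdac4HET (SE, limma adjusted p = 0.0119). Probe sets 3 and 4, which share their source sequence with probe set 2, changed by -0.54 and -0.50 in R6/2 and by -0.45 and -0.44 in Dble::R6/2. Probe set 4 is of the x type, whose probes can also match other transcripts.

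The R6/2 calls of Gabrb2 differed in whether they held without the 4 arrays with pituitary transcripts. Without these arrays, which leaves 5 WT arrays, 7 member probe sets passed in R6/2 against WT, all lower, in place of 11. Over all 45037 probe sets 8040 passed in place of 12127. Gabrb2 probe sets 1, 3 and 4 then changed by -0.46, -0.43 and -0.41 and did not pass (adjusted p = 0.125, 0.16 and 0.169), while Gabrd, Gabra4, Gabra2 probe sets 1 and 3, Gabra3 probe set 2 and Gabrb2 probe sets 2 and 5 still passed. In WT replicates 2, 6 and 7 the brightest Gabrb2 probe set read 10.85, 11.43 and 11.39. The whole pituitary list of 8 measured genes averaged 3.94 to 4.40 in Dble::R6/2, 3.85 to 4.28 in R6/2, 4.01 to 5.88 in Hdac4HET and 4.0 to 6.95 in WT.

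Gabrb1 encodes the beta 1 subunit and was the member that rose. Its brightest probe set (1419719_at) spanned 11.01 to 11.26 with a median of 11.15 in Dble::R6/2, 11.03 to 11.32 with a median of 11.13 in R6/2, 10.85 to 11.07 with a median of 10.96 in Hdac4HET and 10.73 to 11.12 with a median of 10.95 in WT. Most arrays with the transgene lay above most without it, with 2 Dble::R6/2 arrays inside the Hdac4HET range and 3 R6/2 arrays with values that reach the WT range. The change was 0.20 ± 0.06 for R6/2 against WT (SE, limma adjusted p = 0.0263) and 0.18 ± 0.05 for Dble::R6/2 against Hdac4HET (SE, limma adjusted p = 0.00909), 1.14-fold in each. Without the arrays high in Prl the first was 0.13 and did not pass (adjusted p = 0.235), WT replicates 2 and 6 having been the lowest of their genotype at 10.83 and 10.73, and with the replicate block it was 0.20 and did not pass either (adjusted p = 0.063). The order of means was R6/2, Dble::R6/2, Hdac4HET, WT, in which only Dble::R6/2 and Hdac4HET differed past the threshold.

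The other Gabrb1 probe sets differed among themselves. Probe set 2 changed by 0.13 ± 0.06 in R6/2 against WT (adjusted p = 0.162) and by 0.20 ± 0.09 in Dble::R6/2 against Hdac4HET (adjusted p = 0.129), neither past the threshold, and by 0.29 ± 0.06 in R6/2 against Hdac4HET, which passed (adjusted p = 0.00122). Probe set 3 changed by -0.13 and the dim probe set 4 by -0.07 in R6/2, neither of which passed. With the mean of all 4 probe sets in place of the brightest, the Gabrb1 change was 0.03 in R6/2 (adjusted p = 0.813) and 0.06 in Dble::R6/2 (adjusted p = 0.514), a mean that takes in the dim probe set 4 and the widely spread probe set 3. Set beside its neighbour Gabra4, whose promoter is printed with it above, the brightest probe sets differed from WT in opposite directions in R6/2, -0.36 for Gabra4 and 0.20 for Gabrb1. Array probes lie toward the ends of transcripts and say nothing of the shared region itself.

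**Figure D2:**
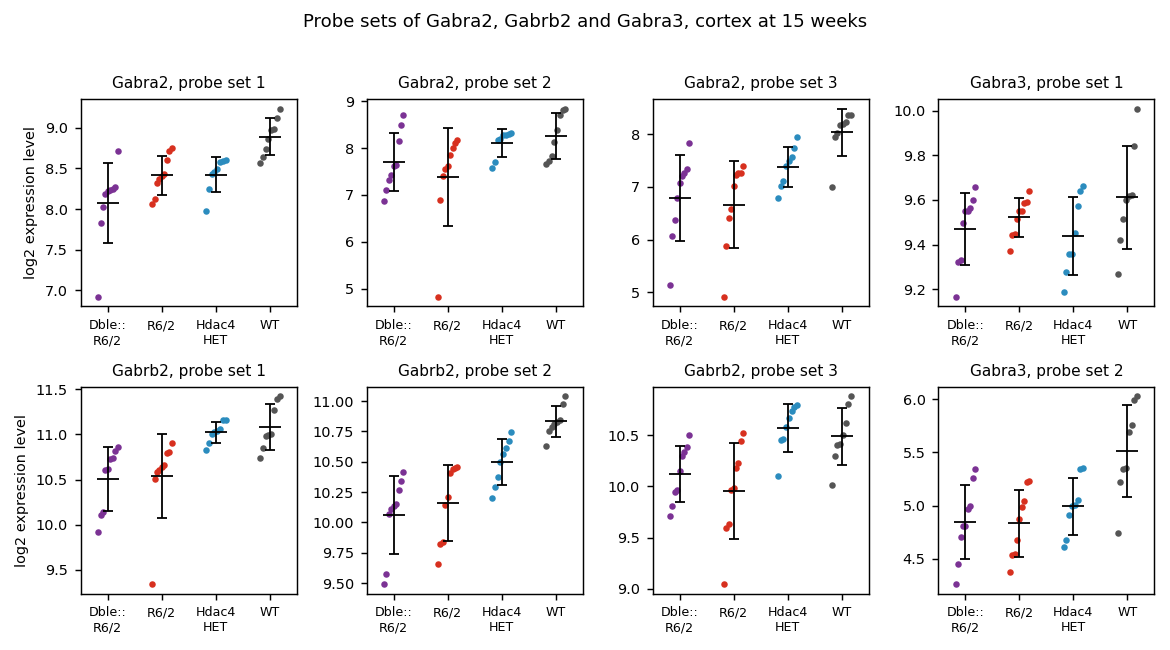
Log2 expression level of probe sets 1 to 3 of Gabra2 and of Gabrb2 and of both probe sets of Gabra3, in every array by genotype. Points are single arrays sorted by value, bars are the mean ± SD, and each panel has its own scale. Gabra2 probe set 3 and Gabra3 probe set 2 lie lower in R6/2 than in WT where Gabra3 probe set 1 overlaps throughout.

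The same transgene was then compared on the background of 1 Hdac4 allele. Between Dble::R6/2 and Hdac4HET, 5 member probe sets were lower, Gabrd probe set 1 and Gabrb2 probe sets 1 to 4, and Gabrb1 probe set 1 was higher, beside 9.98% lower and 13.2% higher of all probe sets. With only the 22518 brighter probe sets fitted, 3843 of them were lower and 5403 higher. The median change of the 7 brightest was -0.19. Gabra2 and Gabra4, lower in R6/2 against WT, did not pass here. That is not a test of a difference between backgrounds, which is given by the interaction below. Leaving out Dble::R6/2 replicate 2 brought the count to 8, with Gabra5 and Gabrb1 probe set 2 added, both higher. Over all 45037 probe sets the calls then went from 10422 to 10433.

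The targeted Hdac4 allele by itself was asked about next. Between Hdac4HET and WT, Gabrd probe set 1 was higher, and Gabra2 probe set 1 and Gabrb2 probe sets 2 and 5 were lower, 1 and 3 of the 21 probe sets beside 1.67% higher and 2.23% lower of all. The 22518 brighter probe sets, fitted alone, had a larger share called, with 1167 higher and 1296 lower. Gabrd averaged 9.32 ± 0.18 in Hdac4HET and 8.96 ± 0.10 in WT (SD, n = 8 each), a change of 0.37 ± 0.08 (SE, limma adjusted p = 0.0258) or 1.29-fold. Gabrb2 probe set 2 changed by -0.34 ± 0.08 (adjusted p = 0.0344) and the dim probe set 5 by -0.52 ± 0.12 (adjusted p = 0.0325), while probe sets 1, 3 and 4 changed by -0.06, 0.08 and 0.10 and did not pass.

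These calls lay close to the threshold. None of the 4 passed without the arrays high in Prl, with sex taken from the Xist level in the model or with the methods' t-test, although the changes of Gabrd (0.33 to 0.37) and of Gabra2 probe set 1 (-0.47 to -0.38) stayed of like size under these settings. Over all 45037 probe sets the calls fell from 1760 to 5, 22 and 173 in these settings, in that order. By Xist level the female arrays were WT replicates 2, 3, 4, 6 and 7 and Hdac4HET replicates 4 and 7, so the sexes were not balanced by that measure. With sex from the labels, which Xist did not match in most arrays of both genotypes, 8 member probe sets passed. Over all probe sets 3305 passed in that setting. Gabra4 and Gabra5, at -0.22 and -0.34, did not pass (adjusted p = 0.0759 and 0.119), and Gabrb1 differed by 0.01 (95% interval -0.12 to 0.14).

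The central comparison of the study, whether a reduction of HDAC4 alters the R6/2 profile, is that of Dble::R6/2 with R6/2. No member probe set passed by limma or by the methods' t-test, and 0 had an unadjusted p under 0.05 in the limma fit, beside 0.00444% higher and 0.00222% lower of all probe sets. Gabrd was 8.07 ± 0.19 in Dble::R6/2 and 8.01 ± 0.19 in R6/2 (SD, n = 9 each), a change of 0.05 with a 95% interval of -0.13 to 0.23. The interval was -0.11 to 0.11 for Gabrb1, -0.23 to 0.14 for Gabra4, -0.19 to 0.09 for Gabra3, -0.40 to 0.34 for Gabrb2, -0.48 to 0.09 for Gabra5 and -0.695 to 0.00192 for Gabra2, all on the brightest probe set. For Gabrd the upper bound of 0.23 is well short of its fall of 0.94 in R6/2. The upper bound of Gabra2 is near 0, and its low end moves with Dble::R6/2 replicate 2.

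The interaction of transgene and allele asks whether the transgene's difference was of another size with 1 Hdac4 allele than with 2. None of the 21 probe sets passed (limma on all 4 genotypes), beside 0.00222% higher and 0% lower of all probe sets, and 3 had an unadjusted p under 0.05. These were Gabrb2 probe set 5 at 0.53, Gabrd probe set 1 at -0.31 and Gabra3 probe set 2 at 0.53, with limma adjusted p of 0.208, 0.352 and 0.424. For Gabra2 and Gabra4, called on the background of both alleles alone, the interaction was 0.12 (95% interval -0.31 to 0.55) and 0.17 (95% interval -0.06 to 0.41).

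The 2 remaining pairs of genotypes serve to place the levels in order. Against WT, Dble::R6/2 had 1 member probe set higher and 11 lower, beside 16.8% and 13.7% of all probe sets. Against Hdac4HET, R6/2 had 3 higher and 5 lower, beside 12.7% and 9.55%. Fits of the 22518 brighter probe sets alone gave 6526 higher and 4802 lower in the first pair and 5119 and 3710 in the second. In the first, the changes of the brightest probe sets were -0.89 for Gabrd, -0.82 for Gabra2, -0.58 for Gabrb2, -0.41 for Gabra4 and 0.20 for Gabrb1. These comparisons share their arrays with those above.

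**Figure D3:**
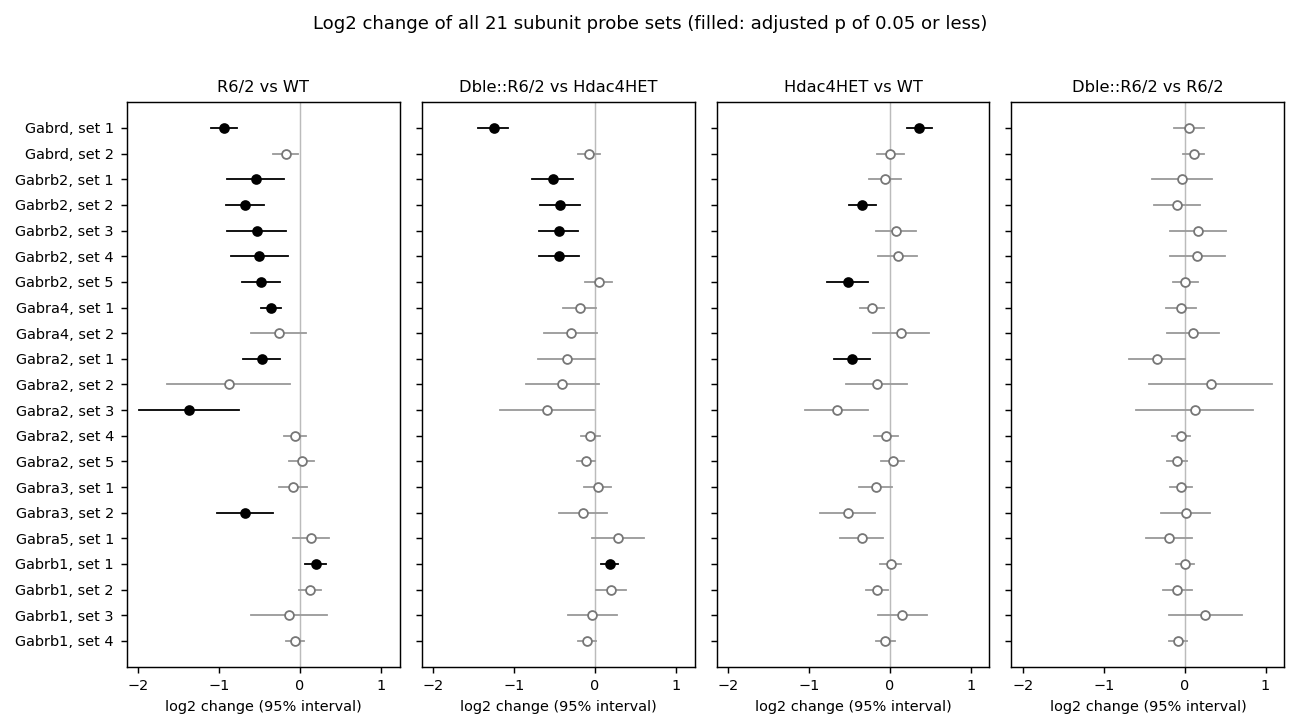
Log2 change of each of the 21 subunit probe sets with its 95% interval (limma) in R6/2 against WT, Dble::R6/2 against Hdac4HET, Hdac4HET against WT and Dble::R6/2 against R6/2. Filled points are those with an adjusted p at or under 0.05, and probe sets are numbered by brightness. Filled points number 11, 6, 4 and 0 from left to right, and most of them lie below 0.

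To set the 7 subunits among the other genes of inhibitory transmission, each gene was taken by its brightest probe set, where 20.2% of 18193 genes were higher and 11.8% lower in R6/2 against WT, and 18.3% higher and 11.7% lower in Dble::R6/2 against Hdac4HET. Of the other GABA-A receptor subunits, 8 of 12 were measured and none was called in R6/2, with changes of -0.05 to 0.21. For 6 of the 8 the mean lay between 3.04 and 5.004 in every genotype, below the median brightness of 5.5, where a change is hard to resolve, so the list is no match for the 7 members. The other 2 were the gamma subunits Gabrg1, at 7.68 ± 0.14 in R6/2 and 7.69 ± 0.18 in WT, and Gabrg3, at 5.93 ± 0.35 in R6/2 and 5.89 ± 0.24 in WT (SD, n = 9 and 8). The rho subunit Gabrr2 averaged 5.004 ± 0.55 in Dble::R6/2 and 4.17 ± 0.18 in Hdac4HET (SD, n = 9 and 8), higher by 0.83 ± 0.18 (SE, limma adjusted p = 0.00207), and no other of the 8 passed.

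Of the genes that anchor or carry the receptors, 25 of 27 were measured, and 3 were higher and 6 lower in R6/2. Rdx, encoding radixin, which anchors alpha 5 receptors outside synapses, was higher by 0.47 ± 0.06 (SE, limma adjusted p = 7.05e-06), and the kinesin adaptor Trak1 was lower, at -0.43 ± 0.06 (SE, limma adjusted p = 4.09e-05). Plcl1, whose product binds beta subunits, was at -0.42 (adjusted p = 0.00222) and the scaffold partner Iqsec3 at -0.40 (adjusted p = 0.00293). Gphn, encoding gephyrin, the scaffold of inhibitory synapses, was lower by less, at -0.19 ± 0.05 (SE, limma adjusted p = 0.0143). In Dble::R6/2 against Hdac4HET 3 were higher and 4 lower, with Rdx at 0.52 and Trak1 at -0.36 again passing.

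Of 2 chloride transporters, Slc12a2 (NKCC1), which loads chloride, was higher in R6/2, at 10.24 ± 0.08 in R6/2 and 9.98 ± 0.23 in WT (SD, n = 9 and 8), a change of 0.26 (limma adjusted p = 0.0227). Slc12a5 (KCC2), which extrudes chloride, was lower, at 12.27 ± 0.05 in R6/2 and 12.42 ± 0.04 in WT, a change of -0.14 (limma adjusted p = 0.0148). Both values are of mixed tissue, and the cells they come from were not measured. In Dble::R6/2 against Hdac4HET, Slc12a2 changed by 0.24 (adjusted p = 0.0119) and Slc12a5 by -0.12 (adjusted p = 0.203). Without the arrays high in Prl, neither passed in R6/2 against WT, where calls over all probe sets fell from 12127 to 8040.

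Of 7 measured genes of GABA synthesis, transport and breakdown, 4 were lower and none higher in R6/2, namely Abat, the GABA transaminase (-0.91), Gad1 and Gad2, which make GABA (-0.90 and -0.42), and the glial transporter Slc6a11 (-0.75), with limma adjusted p of 6.17e-05, 3.05e-06, 5.55e-05 and 0.00107. The vesicular transporter Slc32a1, at -0.20, and the transporter Slc6a13, at 0.18, did not pass (adjusted p = 0.105 and 0.218). Between Dble::R6/2 and Hdac4HET 6 of the 7 were lower. Of 3 measured GABA-B receptor genes, the subunit Gabbr1 (-0.22, adjusted p = 0.0274) and the auxiliary Kctd8 (-0.65, adjusted p = 0.00734) were lower in R6/2, and neither passed without the arrays high in Prl. The median change of the 3 was -0.237 with those arrays and -0.247 without them, while calls over all probe sets fell from 12127 to 8040. In Dble::R6/2 against Hdac4HET, 2 of the 3 were lower, Gabbr1 and Kctd16.

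**Figure D4:**
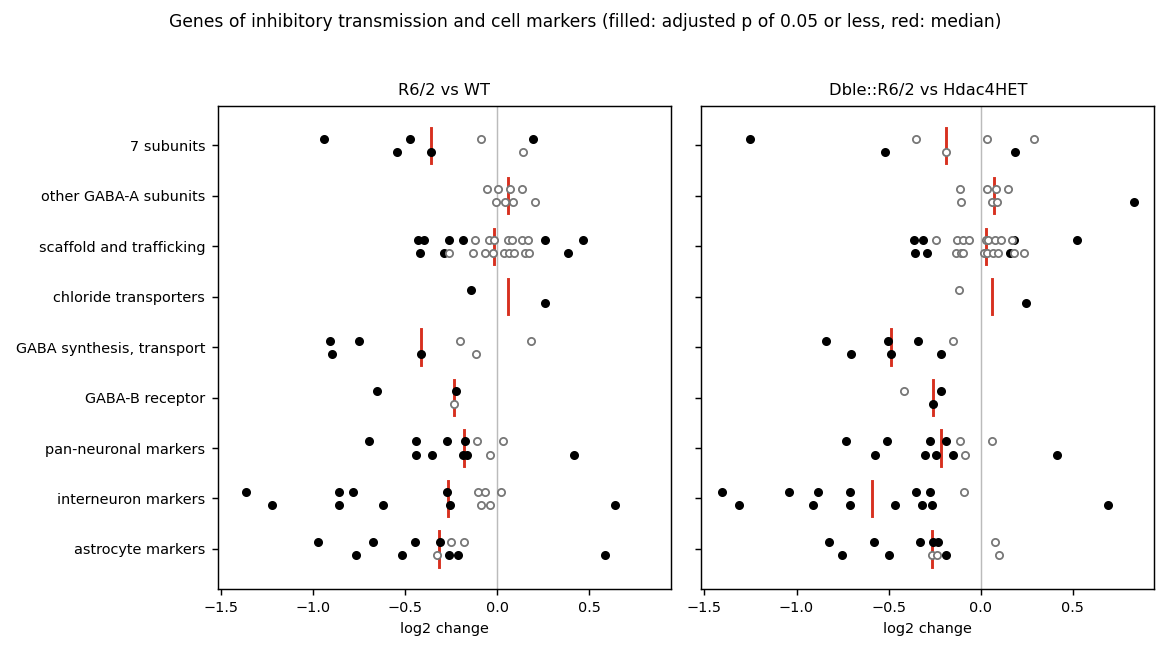
Log2 change of single genes in 9 lists in R6/2 against WT and in Dble::R6/2 against Hdac4HET, by the brightest probe set. Filled points are those with an adjusted p at or under 0.05, and red bars are list medians. The medians of the 7 subunits lie at -0.36 and -0.19, and 6 of the 8 other GABA-A subunits lie below the median brightness of the array.

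Markers of the cells that carry or contact these receptors moved with the transgene too. Of 12 pan-neuronal markers, 8 were lower and 1 higher in R6/2, and the list averaged 11.34 to 11.62 in Dble::R6/2, 11.37 to 11.63 in R6/2, 11.57 to 11.85 in Hdac4HET and 11.69 to 11.81 in WT. Of 14 interneuron markers, 8 were lower and 1 higher in R6/2, with list averages of 7.92 to 8.20 in Dble::R6/2, 8.08 to 8.37 in R6/2, 8.48 to 8.75 in Hdac4HET and 8.51 to 8.73 in WT. Of 12 astrocyte markers, 8 were lower and 1 higher in R6/2. Sst and Npy, peptides of interneurons, changed by -1.37 and -1.23 in R6/2. Each of the 12 pan-neuronal markers averaged 9.67 or more in every genotype. In R6/2 against WT the pan-neuronal median change was -0.18 and the interneuron median -0.26, beside -0.36 for the 7 subunits. Between Dble::R6/2 and Hdac4HET the pan-neuronal median was -0.22 and the interneuron median -0.59, beside -0.19 for the 7 subunits. The part of these markers in the subunit differences was not tested.

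The genes whose profiles lay closest to each subunit were found by the root mean square difference over the 34 arrays, each profile centred on its WT mean, among all 18193 genes. Closest to Gabrd were Aifm3 (0.17) and Rph3a (0.20), which themselves changed by -0.92 and -0.75 in R6/2 against WT, where a flat profile would have differed by 0.71. Closest to Gabra4 were Nptn (0.10) and Herc3 (0.10, flat profile 0.34), and closest to Gabrb2 were Lrrc4 and Smim10l1 (0.17 and 0.19, flat profile 0.52). For Gabra2 they were Adhfe1 and Slc39a12 (0.20 each, flat profile 0.62). For Gabrb1 (Itm2c and Ppp2r1a), Gabra3 (Dcaf7 and Rhoa) and Gabra5 (Pcbp1 and Arf4) the nearest genes differed by at least 0.52 of what a flat profile would. The arrays share their genotypes, so such likeness describes the order of levels and is not a test.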

How the data were processed

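RNA of mouse cortex was hybridised to Affymetrix whole-genome mouse arrays, 34 in all, and the authors excluded arrays of poor quality. The authors deposited 1 value per probe set and array, on a log2 scale as the range of the values shows. How they corrected background, normalized and summarised the probes is not given in the sources used here. Gene names come from the platform annotation, in which 34945 of 45037 probe sets had 1 symbol, 932 had several and 9160 had none, and only those with 1 symbol were named. Groups and replicate numbers were taken from the sample labels. The number of arrays limits the precision.

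Each pair of genotypes was fitted alone with limma 3.58.1 (lmFit and eBayes, R 4.3.3), with Benjamini-Hochberg adjustment over all 45037 probe sets and a call at an adjusted p at or under 0.05. The interaction was fitted on all 4 genotypes. Every adjusted p in the text is limma's unless another test is named, and fold changes are 2 to the power of the log2 change. The fit was tested on simulated data first. Promoters were read from RefSeq windows of GRCm38.p6, and figures were drawn with matplotlib 3.10.9. Alternatives were the methods' t-test, quantile normalization, brighter probe sets only, a trended robust fit, a single fit of 4 genotypes, sex from labels or from Xist, a replicate block, array weights, the mean of all probe sets and leaving out arrays. Leaving out Dble::R6/2 replicate 2 was added after seeing the data.

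The members and gene lists were chosen with earlier results of these data known. Named were all member probe sets, up to 4 called genes of each other list with the largest change in R6/2 against WT, and for each member the 2 genes of most similar profile. Gphn, Gabrg1, Gabrg3, Gabrr2, Slc32a1, Slc6a13 and Kctd16 are named outside this rule, after their values were seen. Other GABA-A subunits without a probe set of their own symbol, 4 of 12, were not analysed here.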

Additional observations from a re-analysis of the deposited data

Results flagged for a closer look

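Single arrays stood apart in 8 of the 84 groups of member probe set and genotype, by Dixon's test at a level that chance exceeds in 5% of groups. Dble::R6/2 replicate 2 accounted for 4 of them. Its brightest Gabra2 probe set read 6.9197 (nearest array 7.8226), Gabra5 read 7.7735 (nearest 8.3365) and Gabrb1 probe set 2 read 9.2182 (nearest 9.6943), each the lowest of its genotype. On the dim Gabrb1 probe set 4 it was the highest, at 2.7002 (nearest 2.5286).

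R6/2 replicate 2, the array with epidermal transcripts, was the lowest on Gabra2 probe set 2 at 4.8202 (nearest 6.9013) and on Gabrb2 probe set 1 at 9.3366 (nearest 10.501). WT replicate 8 was the lowest on Gabra2 probe set 3 at 6.9896 (nearest 7.9512). Dble::R6/2 replicate 1 was the highest on the dim Gabrb2 probe set 5 at 4.6265 (nearest 4.2642).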

How the results depend on the processing

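In R6/2 against WT the count of called member probe sets was 11, and 7 without the arrays high in Prl. In Dble::R6/2 against WT it was 12, and 7 without them. Over all 45037 probe sets the calls went from 12127 to 8040 in the first and from 13750 to 9815 in the second. In Hdac4HET against WT it was 4, with 0 by the methods' t-test, 0 with sex from Xist, 0 without the arrays high in Prl, 2 with 4 genotypes in a single fit and 8 with sex from labels. Over all probe sets the calls there were 1760, with 173, 22, 5, 704 and 3305 in the same order of settings. Between Dble::R6/2 and Hdac4HET it stayed within 6 to 8. With the replicate block it was 5 in R6/2 against Hdac4HET, where it was 8 without the block, 11 in R6/2 against WT (0 higher and 11 lower, Gabrb1 losing and Gabra2 probe set 2 gaining its call), 3 in Hdac4HET against WT, 6 in Dble::R6/2 against Hdac4HET and 9 in Dble::R6/2 against WT. Over all probe sets the block took the calls from 10038 to 7505, 12127 to 11352, 1760 to 877, 10422 to 8535 and 13750 to 13272, in that order. Same-numbered arrays correlated at -0.382 to 0.45, so the numbers were not taken to pair samples.

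Changes near 0 took the other sign in some settings. In R6/2 against WT, Gabra2 probe set 5 was -0.05738 without the arrays high in Prl and -0.004104 without R6/2 replicate 2, and Gabrb1 probe set 3 was 0.01228 without that replicate and 0.0241 with array weights. With the mean of all probe sets, Gabra3 was -0.05755 in Dble::R6/2 against Hdac4HET and Gabrb1 was -0.01227 in Hdac4HET against WT. Without the arrays high in Prl, Gabrb1 was -0.06689 and Gabrb2 0.005104 in Hdac4HET against WT.

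In Dble::R6/2 against R6/2 the mean of all probe sets gave 0.02723 for Gabra4, 0.01952 for Gabrb1 and 0.04127 for Gabrb2, and sex from Xist gave 0.002421 for Gabrb1 and 0.003396 for Gabrb2. Leaving out R6/2 replicate 2 or Dble::R6/2 replicate 2 spanned -0.05284 to 0.001054 for Gabra4, -0.01179 to 0.01687 for Gabrb1 and -0.1818 to 0.04126 for Gabrb2. The interaction of Gabrb1 was 0.06659 without the arrays high in Prl and 0.0318 with the mean of all probe sets. That of Gabrb2 was -0.02484 with sex from Xist, -0.03706 without the arrays high in Prl and -0.03884 with array weights. Leaving out those replicates spanned -0.02322 to 0.005439 for Gabrb1 and -0.1227 to 0.1003 for Gabrb2. None of these changes passed in any of the settings named in this paragraph, and the cause of each move was not tested. Of the 21 probe sets 6 lay below the median brightness of 5.5, where an array resolves little change.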

Other observations

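Other marker lists were counted beside 20.2% higher and 11.8% lower of all 18193 genes in R6/2 against WT. In Dble::R6/2 against Hdac4HET those shares were 18.3% and 11.7%. Of 11 measured microglia markers, 7 were lower and none higher in R6/2 against WT (median log2 change -0.47), and 9 were lower in Dble::R6/2 against Hdac4HET. Of 11 measured oligodendrocyte markers, 5 were lower in each comparison (medians -0.29 and -0.18). Astrocyte markers averaged 9.60 to 9.79 in Dble::R6/2, 9.59 to 9.74 in R6/2, 9.95 to 10.12 in Hdac4HET and 9.94 to 10.15 in WT.

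Markers of vessels and of tissues other than cortex gave mixed counts in R6/2 against WT, beside 20.2% higher and 11.8% lower of all genes. Striatal projection neuron markers were lower for 3 of 10, hippocampal and thalamic markers each lower for 3 and higher for 1 of 10, choroid plexus markers higher for 4 of 10, endothelial and mural markers higher for 3 of 12, pituitary markers lower for 3 of 8 and epidermal markers higher for 1 of 10.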
